A study of Mus musculus with 11 samples.

Results

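Fgf1, Arhgap26 and Prkg1 were followed through 11 single-nucleus RNA sequencing libraries of nuclei from the brainstem, cerebellum and upper cervical cord of mice, with the molecular layer interneurons of the cerebellum at the centre. The 3 genes were chosen by their measured levels in these interneurons, which set 1 naive library apart from the rest, so those levels are a description and were not tested. They were found in the deposited feature lists by symbol. The 3 symbols belong to 4 of 25827 gene identifiers, since Arhgap26 is listed under 2. The genome positions given here are those of GENCODE vM39 on GRCm39. Fgf1 (ENSMUSG00000036585) spans chr18:38971717-39077186 on the minus strand. The first Arhgap26 entry (ENSMUSG00000036452) spans chr18:39126097-39509337 on the plus strand. The second Arhgap26 entry (ENSMUSG00000118193) was not among the genes of that annotation release, and no position is given for it. Prkg1 (ENSMUSG00000052920) spans chr19:30541889-31742479 on the minus strand. Counts of the 2 Arhgap26 entries are given separately and how reads were divided between them was not examined, so neither is read as the level of the whole gene. Intronic reads were counted along with exonic ones.

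Fgf1 is a secreted growth factor that binds all FGF receptors and leaves the cell without a classical signal peptide. Arhgap26, also called GRAF1, is a GTPase activating protein that shapes membranes and the actin skeleton. Prkg1 is the cyclic GMP dependent protein kinase downstream of nitric oxide, and in the cerebellum it is best known from Purkinje cells, where it acts in long-term depression. Molecular layer interneurons, the basket and stellate cells, are GABAergic neurons that inhibit Purkinje cells. They divide into a type marked by Sorcs3 and Ptprk and a type marked by Nxph1 and Cdh22.

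The mice came from a study of Il12rb2, a chain of the interleukin-12 receptor, in neural cells during experimental autoimmune encephalomyelitis (EAE). This disease of the central nervous system follows immunization with myelin antigen and serves as a model for multiple sclerosis. All mice were males of 8 to 12 weeks with floxed Il12rb2 alleles (Il12rb2fl/fl, here fl), and the NestinCre littermates also carried 1 Cre allele. Cre was under the Nestin promoter, which works in neural precursors, so that neurons and glia other than microglia descend from cells with Cre. EAE mice were immunized with 200 µg of a myelin oligodendrocyte glycoprotein peptide in complete Freund's adjuvant, were given 50 to 100 ng of pertussis toxin and were sampled at day 10, and naive mice were not immunized. There were 4 libraries of fl EAE, 4 of NestinCre EAE, 2 of fl naive and 1 of NestinCre naive. Libraries were sequenced in 3 runs, and the run numbers used here do not follow the order in which the study lists its experiments. Run 1 comprised replicates 1 to 3 of fl EAE and of NestinCre EAE. Run 2 comprised fl EAE 4, NestinCre EAE 4 and fl naive 2, and run 3 comprised fl naive 3 with NestinCre naive 2. The study used the naive sample of run 2 as an internal control between sequencing experiments. The hour at which each mouse was sampled was not given in the sources used here. The labels list each library as a sample of its own without naming the animals, so p-values measure only the spread between these samples. The EAE libraries of run 2 have no number in the labels and were given the number 4.

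Of 189709 barcodes, 159445 nuclei were kept, 11640 to 18503 per library, with a median of 2377 UMIs (unique molecular identifiers, one per captured transcript). Pairs of libraries shared 47 to 140 barcodes, at most 0.692% of the smaller library. Outside the immune cell classes, Il12rb2 had 11.1 to 16.9 UMIs per 1000000 in fl EAE and 8.06 to 16.7 in NestinCre EAE. These ranges overlap, and where the counted reads lie relative to the deleted part of the gene was not examined, so the counts do not check the genotype labels.

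The interneurons comprised 7497 nuclei, 414 to 1141 per library. Their 7 markers (Tfap2b, Pvalb, Sorcs3, Ptprk, Nxph1, Cdh22 and Lypd6) were detected in every library and summed to 5245 UMIs per 1000000 UMIs of the class (CPM) in fl naive 2 against 5146 to 6079 in the other libraries. Of the 7, 3 were below all other libraries in fl naive 2, namely Pvalb (247.9 against 303.5 to 458.8 CPM), Tfap2b (236.6 against 246.9 to 343.5 CPM) and Ptprk (959.5 against 969.5 to 1386 CPM), and 4 were within their range. The library fl naive 2 gave the most interneurons, 1141 nuclei or 6.84% of its kept nuclei against 3.56 to 4.94% elsewhere. Its interneurons were not unusually deep, with a median of 3162 UMIs against 2867 to 5706.

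Fgf1 was at 127.7 CPM in the interneurons of fl naive 2. It was at 29.4, 38.3, 39.1 and 26.2 CPM in fl EAE 1 to 4 and at 57.3, 44.2, 58.3 and 25.9 CPM in NestinCre EAE 1 to 4. The other naive libraries held 28.1 CPM (fl naive 3) and 37.1 CPM (NestinCre naive 2). Thus 1 of the 2 fl naive libraries was far above all others, 2.19 times the highest and 3.39 times the median of the other 10, whereas the other fl naive library was among the lowest. The value in fl naive 2 rests on 487 UMIs, with an exact Poisson interval of 116.6 to 139.6 CPM that covers counting error only. The highest other interval reached 71.5 CPM (NestinCre EAE 3).

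At its top, the second Arhgap26 entry followed the same order. It was at 286.9 CPM (1094 UMIs, interval 270.2 to 304.5) in fl naive 2. In fl EAE 1 to 4 it was at 109.6, 74.6, 73.1 and 68.9 CPM, and in NestinCre EAE 1 to 4 at 127.3, 100.7, 140.0 and 94.6 CPM. The other naive libraries were at 78.9 and 79.3 CPM, within the range of the EAE libraries. The ratio of fl naive 2 to the highest other library was 2.05.

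No such gap was seen for the first Arhgap26 entry. In fl naive 2 it was at 33.3 CPM (127 UMIs). It was at 32.8, 26.3, 32.6 and 26.9 CPM in fl EAE 1 to 4 and at 39.4, 41.5, 42.5 and 35.7 CPM in NestinCre EAE 1 to 4. The other naive libraries were at 33.0 and 27.3 CPM. With both entries bearing 1 symbol, Arhgap26 can be called high in this library only for the second.

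Prkg1 was at 210.9 CPM (804 UMIs, interval 196.6 to 226.0) in fl naive 2. It was at 103.7, 116.7, 112.2 and 72.1 CPM in fl EAE 1 to 4 and at 49.0, 92.5, 72.2 and 64.2 CPM in NestinCre EAE 1 to 4. The next highest library was again naive, fl naive 3 at 122.9 CPM, and NestinCre naive 2 was at 79.7 CPM. The ratio to the highest other library was 1.72. Within run 2 alone, that is against fl EAE 4 and NestinCre EAE 4, the ratios were 4.87 for Fgf1, 3.03 and 0.934 for the second and first Arhgap26 entries and 2.93 for Prkg1.

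**Figure D1:**
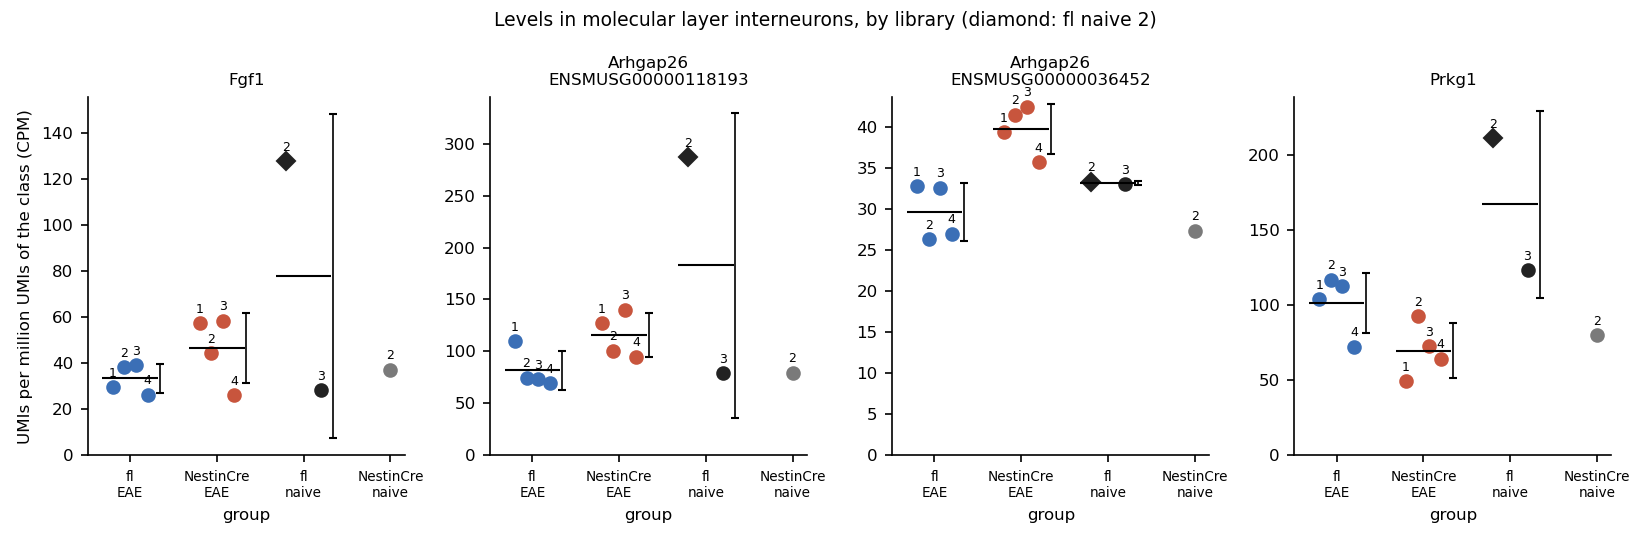
Level of each gene in molecular layer interneurons in CPM, 1 point per library labelled with its replicate number, with the mean (line) and SD (bar) of each group of 2 or more. The diamond is fl naive 2, which lies above the other 10 libraries for Fgf1 (127.7 CPM), the second Arhgap26 entry (286.9 CPM) and Prkg1 (210.9 CPM), but inside their range for the first Arhgap26 entry (33.3 CPM).

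Among the 8485 genes with at least 50 UMIs of this class in fl naive 2 or on average in the other libraries, 767 were higher in fl naive 2 than in any other library, which is 9.04% of them. Only 8 genes, or 0.0943%, were higher by more than 1.5 times in CPM + 1, and 3 of these 8 were Fgf1, the second Arhgap26 entry and Prkg1. They stood at ranks 1, 2 and 4 by the ratio of CPM + 1 to the highest other library, and the first Arhgap26 entry at rank 4657. These ranks restate the choice of the genes. The other 5 of the 8 were scarcer: Il5ra (15.5 against 2.73 to 8.33 CPM), A930040O22Rik, Smox (27.3 against 10.9 to 16.4 CPM), Fbn1 and Igsf6. These 5 met the limit of 50 UMIs only through fl naive 2, the library where they were high, so the share of 0.0943% rests in part on that library. The threshold of 1.5 fell between Igsf6 at 1.502 and Nxpe2 at 1.496, followed by Cabyr at 1.475. In the opposite direction, Rnf112, Tll1, Dpm1, Nr4a1 and Ccdc85b were furthest below the other libraries, with Nr4a1, an activity-induced nuclear receptor, at 2.62 CPM against 4.69 to 106.3 CPM. The number of genes past 1.5 times was not unusual for 1 library, since NestinCre EAE 1 had 19 and NestinCre naive 2 had 8.

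The excess was present in both interneuron types. In the Nxph1 and Cdh22 type, Fgf1 was at 204.7 CPM in fl naive 2 against 31.3 to 60.3 CPM, a ratio of 3.40 to the highest other library. There the second Arhgap26 entry was at 413.6 against 86.0 to 166.1 CPM and Prkg1 at 581.8 against 100.5 to 275.5 CPM. In the Sorcs3 and Ptprk type, Fgf1 was at 110.0 against 22.7 to 60.9 CPM and the second Arhgap26 entry at 257.8 against 64.5 to 146.6 CPM. Prkg1 was only 1.28 times the highest other library there, 125.5 against 36.4 to 98.4 CPM. The first Arhgap26 entry was within the range of the others in both types. The Nxph1 and Cdh22 type was 19.1% of the interneurons of fl naive 2 and 18.9 to 23.5% elsewhere. The levels weighted to the same mix of clusters in every library gave ratios of 2.15 for Fgf1, 2.05 for the second Arhgap26 entry and 1.82 for Prkg1.

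Over the 8 interneuron clusters, fl naive 2 held the highest Fgf1 and the highest second Arhgap26 entry in 8 of 8. Their margins differed: in cluster 21 Fgf1 was 1.04 times the highest other library, 106.3 against 101.9 CPM, and in cluster 22 it was 3.13 times, 187.4 against 59.9 CPM. Prkg1 was highest in fl naive 2 in 5 of 8 clusters. It was at rank 2 in clusters 23 and 32 and at rank 4 in cluster 21, where it was at 30.8 CPM against 5.40 to 51.4 CPM. The clusters are groups of nuclei of the same libraries and not replicates. The genes were chosen for their levels in the interneurons as a whole, so these counts in part restate that choice. The share of all genes highest in fl naive 2 was not counted by cluster.

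**Figure D2:**
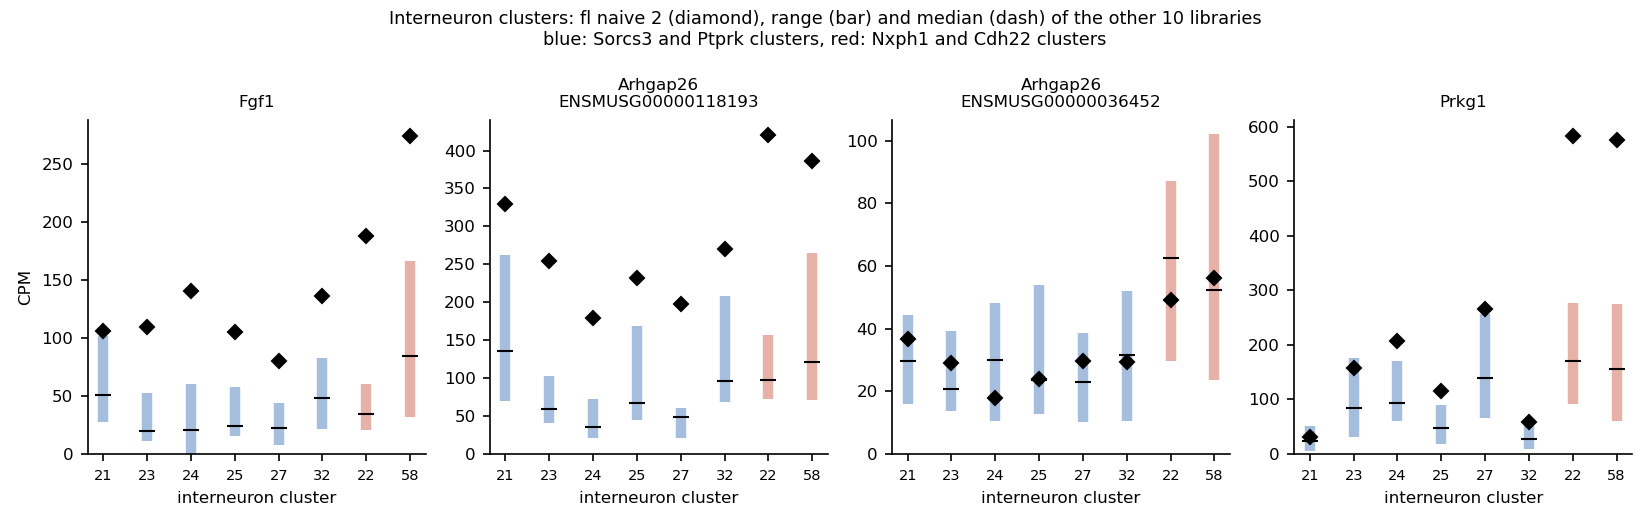
Level in CPM in each of the 8 interneuron clusters, with fl naive 2 as a diamond and the range and median of the other 10 libraries as a bar and dash. The diamonds lie above the bars in 8 of 8 clusters for Fgf1 and for the second Arhgap26 entry and in 5 of 8 for Prkg1, with the widest gaps of Prkg1 in the Nxph1 and Cdh22 clusters 22 and 58.

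A larger share of nuclei carried the transcripts in fl naive 2. A UMI of Fgf1 was found in 27.1% of the interneurons of fl naive 2 (95% exact Clopper-Pearson interval 24.5 to 29.8%) and in 8.47 to 16.6% elsewhere. After every nucleus was thinned to 1000 UMIs, with 18 shallower interneurons left out, the shares were 11.5% (9.71 to 13.5%) against 2.41 to 5.81%. For the second Arhgap26 entry they were 24.7% against 5.31 to 11.1%, and for Prkg1 14.0% against 4.36 to 9.69%. The first Arhgap26 entry was found in 3.34% against 2.06 to 3.96%. Free RNA from other nuclei can give such UMIs, so classes low in each gene were read at the same 1000 UMIs. Microglia gave 2.03% for Fgf1 in fl naive 2 and at most 3.33% elsewhere, and 2.37% for the second Arhgap26 entry and at most 1.43% elsewhere. For Prkg1, mature oligodendrocytes gave 2.93% against 1.33 to 4.25%, and for the first Arhgap26 entry 1.60% against 0.947 to 2.45%. In microglia of fl naive 2 the first Arhgap26 entry was found in 4.75%, more than in its interneurons, and Prkg1 in 11.9% (8.40 to 16.1%), with up to 17.9% elsewhere. The Prkg1 share in the interneurons of fl naive 2 was thus above that in mature oligodendrocytes but not set apart from that in microglia. For Fgf1 and the second Arhgap26 entry the shares in the interneurons of fl naive 2 were above those in microglia, and for Fgf1 those of some other libraries were close to them.

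Fgf1 and the second Arhgap26 entry tended to occur in the same nuclei. Within fl naive 2, 42.0% of 131 thinned interneurons with a UMI of Fgf1 also held the second Arhgap26 entry, against 22.4% of the 1008 without. In the other libraries only 15 to 27 nuclei each held Fgf1, and the shares were 8.33 to 42.9% of these against 4.95 to 10.0% of the rest, higher with Fgf1 in each library. Pooled over all libraries the shares were 29.9% of 345 and 8.96% of 7134, where fl naive 2, the library high in both, gave 131 of the 345. Prkg1 was found in 7.54% and 8.30% of the same pooled nuclei.

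Outside the interneurons, 12 further classes had at least 10 nuclei in every library. Over these and the interneurons, fl naive 2 held the highest Fgf1 in 7 of 13 classes, which were the Golgi, Purkinje, granule, excitatory and inhibitory neurons, the interneurons and the oligodendrocyte progenitor cells. It held the lowest Fgf1 in astrocytes (156.8 against 184.7 to 279.5 CPM, with 19% of genes at their lowest in this library) and in mature oligodendrocytes (101.4 against 115.2 to 224.3 CPM, with 13% of genes). The share of all genes at their highest in fl naive 2 was between 8.17% in inhibitory neurons and 28.1% in vascular leptomeningeal cells or fibroblasts. The excess of Fgf1 was therefore seen in several neuron classes and in oligodendrocyte progenitor cells (156.6 against 42.5 to 130.1 CPM), and not in astrocytes or mature oligodendrocytes. It does not divide neurons from glia. Unipolar brush cells, which are neurons, were within range (87.4 against 32.7 to 128.6 CPM), as were Bergmann glia (243.4 against 131.2 to 272.9 CPM).

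In excitatory neurons, Fgf1 was at 253.6 CPM in fl naive 2 against 84.7 to 120.5 CPM, a ratio of 2.11 to the highest other library. In this class 9.46% of all genes were highest in fl naive 2 and 0.0818% by more than 1.5 times in CPM + 1. In inhibitory neurons it was at 345.0 against 121.3 to 235.9 CPM, and in Golgi cells, large inhibitory neurons of the granule layer, at 456.4 against 223.0 to 376.0 CPM. Granule cells, the most numerous class, were close to the next library, with 84.1 against 49.8 to 81.4 CPM. Purkinje cells held little Fgf1, 19.4 against 2.28 to 17.2 CPM.

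The second Arhgap26 entry was highest in fl naive 2 in 7 of 13 classes, among them excitatory neurons (411.5 against 190.1 to 273.1 CPM), inhibitory neurons (539.7 against 284.4 to 405.3 CPM) and granule cells (140.0 against 51.6 to 95.6 CPM). It was within the range of the others in astrocytes and mature oligodendrocytes, at 255.4 and 72.9 CPM. The first Arhgap26 entry was highest in 2 of 13 classes and by small margins, 222.1 against 166.7 to 201.1 CPM in excitatory and 244.8 against 195.6 to 238.5 CPM in inhibitory neurons. Prkg1 was highest in 4 of 13 classes. Of these, microglia were at 194.6 against 34.8 to 150.7 CPM and Purkinje cells at 18441 against 10414 to 15893 CPM, and excitatory neurons exceeded the next library by little, 1331 against 1327 CPM. No class other than the interneurons set fl naive 2 above the next library by more than 1.5 times for Prkg1. In astrocytes fl naive 2 held the lowest Prkg1, 85.1 against 96.2 to 198.9 CPM, with 19% of genes at their lowest in this library.

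**Figure D3:**
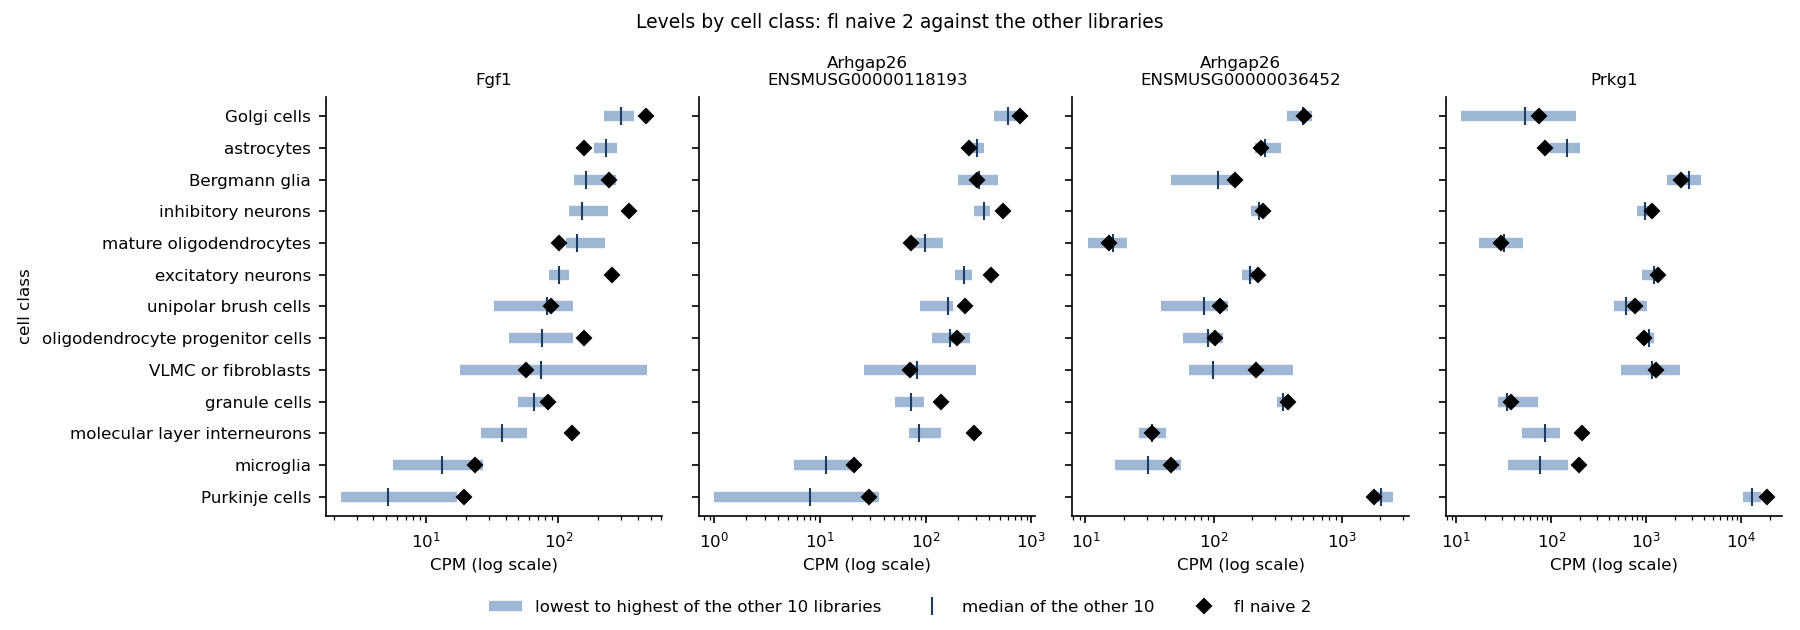
Level in CPM (log scale) by cell class, with fl naive 2 as a diamond and the range and median of the other 10 libraries as a bar and tick. For Fgf1 the diamond lies above the bar in 7 of 13 classes and below it in astrocytes and mature oligodendrocytes, and for the first Arhgap26 entry it lies above the bar in 2 of 13.

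The order of classes was alike for Fgf1 and the second Arhgap26 entry and different for the other entries. Over the classes with enough nuclei, Fgf1 had its highest mean level in Golgi cells (311.7 CPM), then astrocytes (222.6 CPM), Bergmann glia (182.2 CPM), inhibitory neurons (176.3 CPM) and mature oligodendrocytes (145.1 CPM), and its lowest in Purkinje cells (8.60 CPM). The ranges of the libraries overlap between each neighbouring pair of these first 5 classes, Golgi cells (from 223.0 CPM) and astrocytes (up to 279.5 CPM) included, so these neighbours are not separated. The second Arhgap26 entry had the same top, Golgi cells at 621.2 CPM, and the same 2 lowest classes in the other order, Purkinje cells at 13.3 and microglia at 12.3 CPM (15.3 CPM of Fgf1 in microglia). By contrast, the first Arhgap26 entry had its highest level in Purkinje cells (2013 CPM, 1660 to 2524 CPM over all libraries). Prkg1 was highest in Purkinje cells, at a mean of 13711 CPM, followed by Bergmann glia at 2743 CPM, and the interneurons at 99.7 CPM were near the bottom of its order.

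The genes most like each member were taken by Pearson's r of log2(CPM + 1) over the 11 libraries of the interneurons, among 10504 genes. Fgf1 was most like Tnr (r = 0.92), the second Arhgap26 entry (0.88), Stox2, Zyx and Rexo5. Most like the second Arhgap26 entry were Fgf1, Pacs2, Amot, Mamld1 and Tnr. Prkg1 was most like Cdc42ep2 (0.92), Nav1, Mms22l, Stc2 and Rhbdd1, and the first Arhgap26 entry was most like Cbarp (0.89), Ptprs, Zdbf2, H2-K1 and Ddx17. The points share library, depth and sequencing run. The lists of Fgf1, the second Arhgap26 entry and Prkg1 depend on fl naive 2, in an alternative chosen after seeing the data. Without it r fell to 0.81 for Fgf1 with Tnr (rank 21) and was 0.61 to 0.80 with its other 4, and it was 0.47 to 0.78 for the second Arhgap26 entry with its 5. It was 0.81 to 0.89 for Prkg1 with its 5, at ranks 28 to 171. For the first Arhgap26 entry it was 0.86 to 0.93, and Cbarp and Ptprs stayed at ranks 1 and 2. Without fl naive 2, over 10 libraries, r between Fgf1 and the second Arhgap26 entry was 0.63, that between Fgf1 and Prkg1 changed from 0.41 to -0.33, and that between the second Arhgap26 entry and Prkg1 from 0.37 to -0.52. That between both Arhgap26 entries was 0.46 with fl naive 2 and 0.82 without it. The positive values of Prkg1 with Fgf1 and the second Arhgap26 entry thus rest on fl naive 2. Over all 20 named cell classes, r was 0.96 between Fgf1 and the second Arhgap26 entry, 0.16 between both Arhgap26 entries and 0.09 between Fgf1 and Prkg1. These classes include those with under 10 nuclei in some library. Among them are T or NK cells, with 11 UMIs of Fgf1 and 11 of the second Arhgap26 entry in all libraries together. The r over the classes with enough nuclei alone was not computed.

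The wider pathways of the 3 genes were read in the interneurons from lists chosen with earlier results known, counting a gene as measured when it reached 50 UMIs in fl naive 2 or on average in the others. Of the FGF ligands 2 of 16 were measured, and Fgf9 was within the range of the other libraries (40.4 against 27.8 to 50.5 CPM) where Fgf1 was above it. The only measured receptor was Fgfr2, within range at 599.6 against 473.8 to 615.4 CPM. Of 5 measured FGF adaptors, targets and inhibitors, 4 (Frs2, Spry2, Spred1 and Spred2) were within range and Etv1, an ETS transcription factor, was below it at 26.8 against 29.6 to 51.5 CPM, where 9.96% of all genes measured in this class were below. Etv1 is also among the leading genes of granule cell clusters, and granule cell markers summed below the other libraries in these interneurons (133.2 against 135.2 to 248.9 CPM, with 4 of 6 below), whose part in its level was not tested. Of the 4 FGF homologous factors, which stay inside the cell and bind sodium channels, Fgf11 was above, Fgf13 just below and Fgf12 and Fgf14 within range. Syt1, a partner of Fgf1 in its release, was within range.

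Arhgap10, the GRAF2 paralog of Arhgap26, was above all other libraries in fl naive 2 (261.5 against 195.7 to 232.3 CPM). Of 7 measured genes of the nitric oxide and cyclic GMP pathway, Prkg1, the nitric oxide synthase Nos1 (337.8 against 196.0 to 335.1 CPM) and the natriuretic peptide receptor Npr1 (13.1 against 3.17 to 12.5 CPM) were above, where 9.04% of all genes measured in this class were. Of these, Prkg1 was chosen for its level. Npr1 met the limit of 50 UMIs only through fl naive 2, the library where it was high. For Nos1 the other fl naive library was almost as high, at 335.1 CPM, with the EAE libraries at 196.0 to 257.1 CPM. The guanylate cyclase subunits Gucy1a2 and Gucy1b1 and 5 of 5 measured cyclic GMP phosphodiesterases were within range.

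Of 39 genes within 1 Mb of Fgf1, 10 were measured in the interneurons, with 0 above, 2 below (Diaph1, an actin nucleating formin, and Ndfip1) and 8 within the range of the other libraries. The 8 within range include the first Arhgap26 entry. The second entry, which was above the other libraries, has no position in this annotation and could not be counted. Of all genes measured in this class 9.04% were above and 9.96% below.

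Other genes also set fl naive 2 apart, among them genes of the circadian clock, a feedback loop in which Clock and Bmal1 (listed as Arntl) drive Per, Cry and Nr1d genes that repress them. In granule cells 13 of 13 clock genes lay outside the range of the other libraries. Arntl (100.3 against 33.5 to 54.9 CPM) and Clock (201.8 against 132.6 to 167.9 CPM) were above it and 11 were below it, such as Per2 (10.8 against 21.9 to 62.5 CPM) and Dbp (8.59 against 19.3 to 42.5 CPM). The background in this class was 12.2% of genes above and 9.99% below. In the interneurons 1 of 13 was above (Clock, 209.8 against 166.3 to 199.0 CPM), 6 were below and 6 were within range. Per1 was at 7.87 against 10.1 to 89.2 CPM there. The background in the interneurons was 9.04% above and 9.96% below. In mature oligodendrocytes, 1 of 12 measured clock genes was above and 7 were below, with a background of 13.8% above and 13% below. Whether these differences have a part in the levels of Fgf1, Arhgap26 and Prkg1 was not tested.

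**Figure D4:**
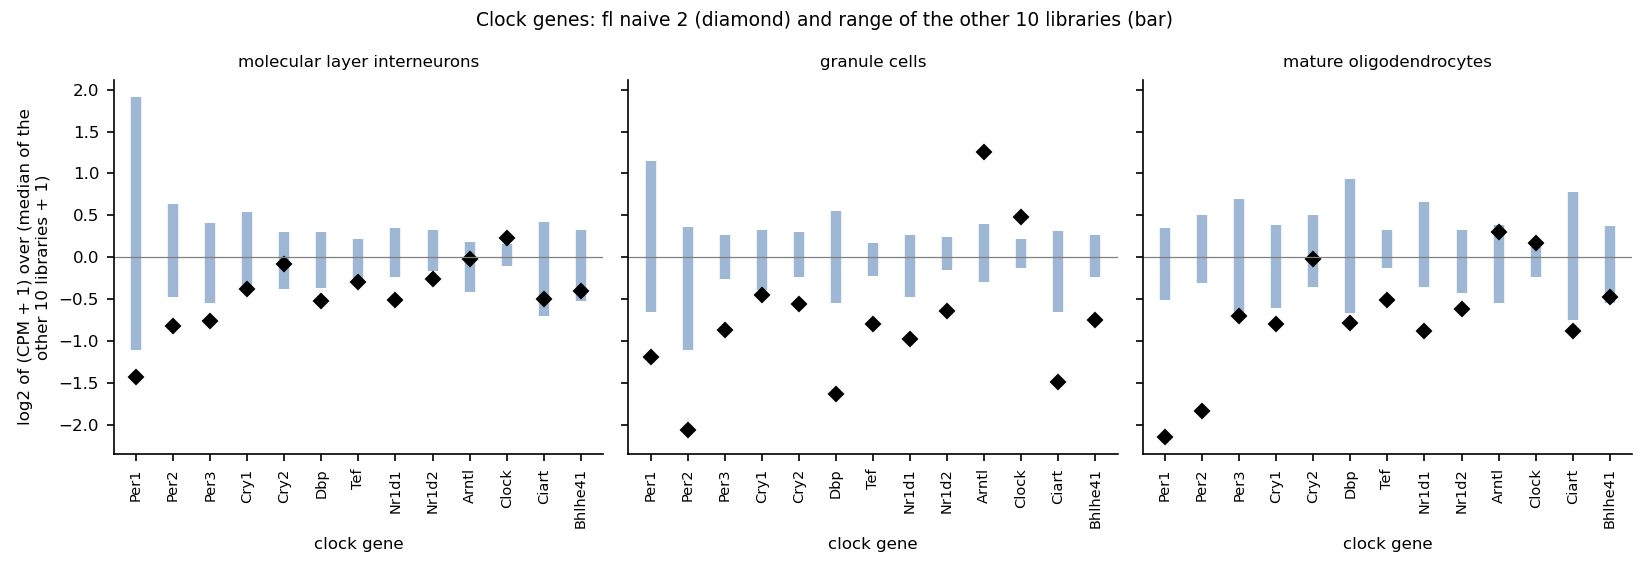
Clock genes in 3 cell classes as log2 of (CPM + 1) over (median of the other 10 libraries + 1), with fl naive 2 as a diamond and the range of the other libraries as a bar. In granule cells 13 of 13 diamonds lie outside the bars, with Arntl and Clock above and 11 below, and in the interneurons 7 of 13 lie outside.

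Stress-hormone, activity and sex-linked genes gave a mixed picture in the same library. In mature oligodendrocytes 4 of 5 glucocorticoid-responsive genes were below all other libraries, as were 13% of all genes measured in that class. Among them were Sgk1 (23.1 against 95.3 to 785.8 CPM) and Fkbp5 (10.3 against 28.5 to 332.1 CPM). In the interneurons both measured genes (Sgk1 and Nr3c1) were within range. The receptor gene Nr3c1 was within range in mature oligodendrocytes too. Of 5 measured immediate early genes in the interneurons, Nr4a1 and Nr4a2 were below, as were 9.96% of all genes measured there, and 3 were within range. All 3 measured heat shock genes were within range. Of 4 measured Y-linked genes 3 were within range and Eif2s3y was just below it at 174.2 against 174.9 to 253.8 CPM, so all libraries carry Y-linked transcripts, as their labels say. No marker list of another cell class summed above the range of the other libraries in the interneurons of fl naive 2. Below the range were the sums of granule cells and of excitatory neurons (803.1 against 878.6 to 1245 CPM). So were those of astrocytes (40.1 against 41.3 to 80.2 CPM) and infiltrating phagocytes (2.10 against 2.26 to 59.9 CPM). Single markers were above the range for microglia (2 of 7), oligodendrocyte progenitor cells (2 of 6) and Golgi cells (1 of 5). The same held for inhibitory neurons (1 of 4) and pericytes (1 of 5). Others were below it for granule cells (4 of 6), astrocytes (2 of 6), excitatory neurons, Bergmann glia and the progenitor cells (1 each). The background in the interneurons was 9.04% of genes above and 9.96% below. Granule cell markers summed to 133.2 against 135.2 to 248.9 CPM, Purkinje cell markers to 278.8 against 217.4 to 365.9 CPM, Golgi cell markers to 63.2 against 49.5 to 89.2 CPM and mature oligodendrocyte markers to 684.0 against 200.5 to 789.0 CPM. Oligodendrocyte progenitor cell markers summed to 2419 against 1927 to 2430 CPM, near the top of the range. The part of any of these values in the levels of the 3 genes was not tested.

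The second question was whether the genes differ between genotypes in EAE, for which fl naive 2 was not used. In the interneurons the NestinCre EAE mean was above the fl EAE mean for Fgf1 and both Arhgap26 entries and below it for Prkg1, but 0 of 4 passed the test (edgeR quasi-likelihood test with run in the model, Benjamini-Hochberg over 11490 genes, 4 against 4 libraries). The percentage of all genes called was 0.191%, 22 genes (74 without fl EAE 4 and 73 without NestinCre EAE 4), and 7.23% had an unadjusted p under 0.05, as did all 4 members. Without fl EAE 4 or NestinCre EAE 4 the comparison rests on run 1 alone. Fgf1 averaged 33.2 ± 6.42 CPM (SD, n = 4) in fl EAE and 46.4 ± 15.1 CPM (SD, n = 4) in NestinCre EAE, a log2 fold change of 0.44 (SE 0.16, edgeR adjusted p = 0.479). Its groups overlap, and NestinCre EAE 4 was the lowest of all 8. The second Arhgap26 entry averaged 81.6 ± 18.9 and 115.6 ± 21.6 CPM (SD, n = 4 each), with an estimate of 0.52 on the log2 scale (SE 0.14, edgeR adjusted p = 0.213), and its groups overlap too.

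The first Arhgap26 entry averaged 29.6 ± 3.51 CPM in fl EAE and 39.7 ± 3.01 CPM in NestinCre EAE (SD, n = 4 each), which the fit put at a log2 difference of 0.44 (SE 0.12, edgeR adjusted p = 0.298). It was the only 1 of the 4 whose groups did not overlap, at 26.3 to 32.8 against 35.7 to 42.5 CPM, and 4.19% of the 7469 genes with at least 50 UMIs per EAE library on average had groups that did not overlap. Prkg1 averaged 101.2 ± 20.1 and 69.5 ± 18.1 CPM (SD, n = 4 each), a log2 difference of -0.50 (SE 0.14, edgeR adjusted p = 0.259). Its groups overlap, with fl EAE 4 of run 2 at 72.1 CPM below NestinCre EAE 2 at 92.5 CPM and NestinCre EAE 3 at 72.2 CPM of run 1. In run 1 the Prkg1 groups were apart, at 103.7 to 116.7 against 49.0 to 92.5 CPM. Run 2 has 1 library per group, so overlap is not possible there, and Prkg1 was at 72.1 against 64.2 CPM. The groups of Fgf1 were also apart in run 1, at 29.4 to 39.1 against 44.2 to 58.3 CPM, with 26.2 against 25.9 CPM in run 2. The share of all genes with groups apart in run 1 was not counted, so this separation is not read as a result. With all genes of at least 1 count kept, the second Arhgap26 entry (0.50, adjusted p = 0.000643) and Prkg1 (-0.52, adjusted p = 0.000690) passed, and the count of called genes rose to 251 of 19810. The DESeq2 Wald test called 30 genes and none of the 4.

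Of the gene lists in the interneurons, those of FGF signalling and of nitric oxide and cyclic GMP had 0 called genes in either direction. Of all genes tested 0.191% were called, so 0 calls in lists this short say little about them. Their median log2 fold changes were between -0.03 and 0.17 beside 0.01 for all genes tested, except the 2 genes of the FGF1 export list (0.62). Of 8 tested immediate early genes 2 were called, beside 0.191% of all genes tested. Egr1 (1.75, SE 0.26, edgeR adjusted p = 0.00554) and Junb (1.53, SE 0.29, edgeR adjusted p = 0.0443) were higher in NestinCre EAE.

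In the 12 other classes, 0 of 41 tested pairs of gene and class passed, where 1.11% of all gene and class pairs did. By unadjusted p under 0.05 there were 6 pairs with edgeR and 5 with DESeq2, where 7.9% of all pairs had one with edgeR. Fgf1 in granule cells was at 49.8, 54.1, 52.5 and 66.1 CPM in fl EAE 1 to 4 and at 81.4, 73.4, 69.6 and 67.0 CPM in NestinCre EAE 1 to 4. These groups do not overlap, which held for 4.17% of 12819 genes in this class, and the log2 fold change was 0.38 (SE 0.12, edgeR adjusted p = 0.322). Without fl EAE 4, without NestinCre EAE 4 or within run 1 alone, this pair passed. Prkg1 in microglia, with the lowest adjusted p of the 41 (0.225), passed only without fl EAE 3 (adjusted p = 0.00718). In excitatory neurons the direction was the opposite of that in the interneurons, at -0.21 for Fgf1 (SE 0.08, edgeR adjusted p = 0.818) and -0.23 for the second Arhgap26 entry (SE 0.06, edgeR adjusted p = 0.414). Whether the genotype difference itself differs between classes was not tested.

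**Figure D5:**
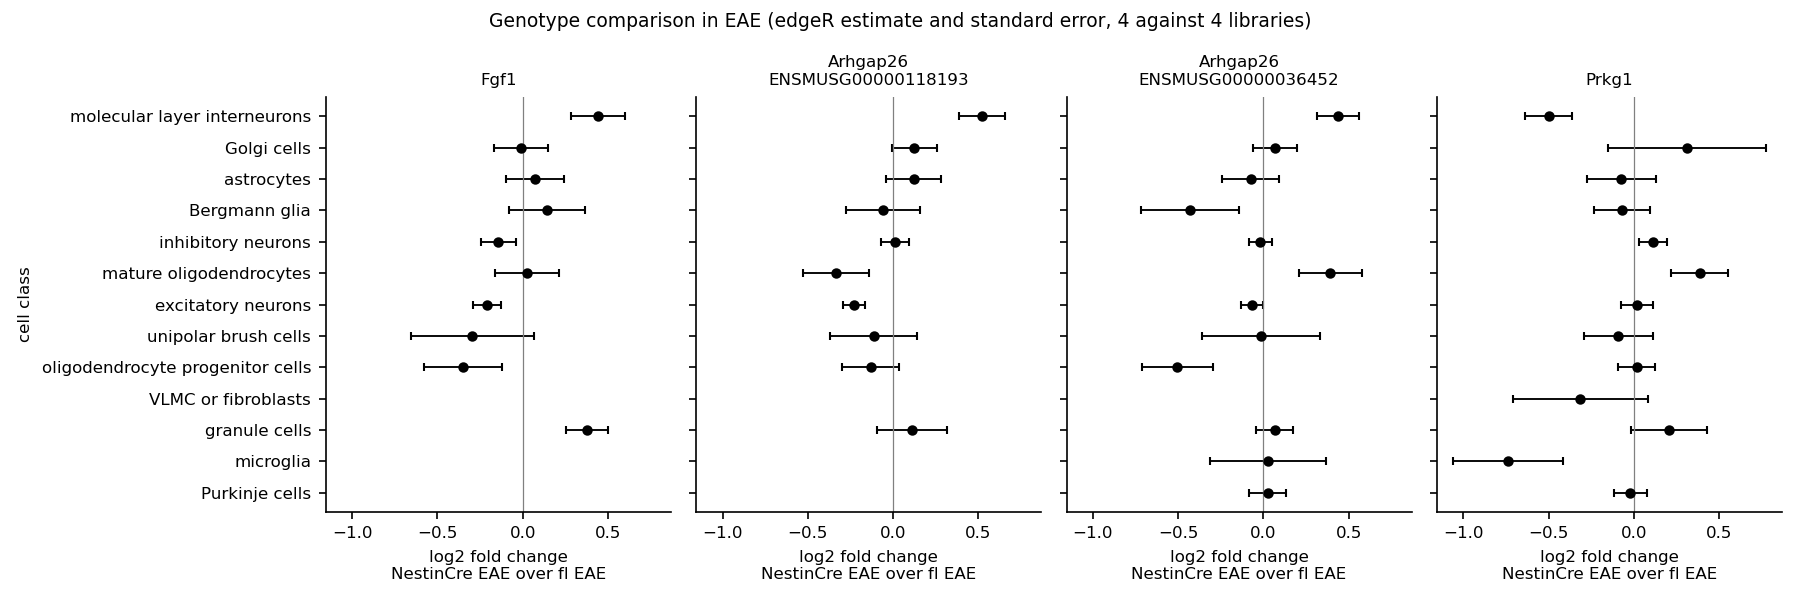
The log2 fold change of NestinCre EAE over fl EAE by cell class, with its standard error, from edgeR on 4 against 4 libraries (a class without a point was not tested for that gene). In the interneurons Fgf1 (0.44) and both Arhgap26 entries (0.52 and 0.44) lie to the right of 0 and Prkg1 (-0.50) to the left, and no estimate passed the adjusted threshold.

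The third comparison, which shares its EAE libraries with the genotype comparison, set EAE against naive libraries in the 12 classes other than the interneurons. Runs 1 and 3 hold only EAE or only naive libraries, so in the fit with a run term fl naive 2 is the only naive library that can be set against EAE libraries of its own run. The change is averaged over genotypes, and NestinCre naive 2 of run 3 also enters it, adjusted for run by the difference between fl naive 2 and fl naive 3. Every estimate thus depends on fl naive 2, the library for which the genes were chosen, so disease state and this library cannot be told apart, and the calls are not read as a test of EAE. Of 46 tested pairs 3 passed, all of them Fgf1 with lower values in EAE, where 0.11% of all pairs in the 12 classes did. The log2 fold change was -1.39 (SE 0.15) in excitatory neurons, where 0.00623% of genes were called, and -1.48 (SE 0.19) in inhibitory neurons, where 0.00684% were. In oligodendrocyte progenitor cells, which give rise to oligodendrocytes, it was -2.18 (SE 0.45), with 0.0643% of genes called. By unadjusted p under 0.05 there were 10 pairs, where 8.02% of all pairs had one. DESeq2 called Fgf1 and the second Arhgap26 entry in excitatory neurons and Fgf1 in inhibitory neurons, but not Fgf1 in the progenitor cells.

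The values by library are given for the 3 classes with a call. In excitatory neurons Fgf1 was at 99.7, 102.7, 104.4 and 117.7 CPM in fl EAE 1 to 4, at 100.4, 96.4, 85.4 and 84.7 CPM in NestinCre EAE 1 to 4, and at 253.6 CPM in fl naive 2 against 117.3 CPM in fl naive 3 and 120.5 CPM in NestinCre naive 2. Thus fl naive 3 was within the EAE range and NestinCre naive 2 just above it. In inhibitory neurons the naive libraries were at 345.0, 161.5 and 235.9 CPM and the EAE libraries at 121.3 to 192.7 CPM, so NestinCre naive 2 was above and fl naive 3 within the EAE range. In oligodendrocyte progenitor cells the naive libraries were at 156.6, 64.7 and 130.1 CPM on 35, 17 and 38 UMIs, against 42.5 to 118.0 CPM in EAE. Without fl naive 2 and with no run term the changes were -0.19, -0.32 and -0.19 in the 3 classes (edgeR adjusted p = 0.265, 0.137 and 0.903), and 0 of 46 pairs passed. With the run term kept, the call in inhibitory neurons was lost without NestinCre naive 2 (-1.11, edgeR adjusted p = 0.0523), when the change is that of the fl genotype alone. The call in the progenitor cells was lost without NestinCre EAE 2 (-2.18, 0.0537), fl EAE 4 (-2.18, 0.0546), NestinCre EAE 4 (-2.17, 0.0719) or NestinCre naive 2 (-1.50, 0.184). It was also lost with doublets kept (-1.83, 0.0962). Each pair of numbers is the change, beside -2.18 in the main fit, and its edgeR adjusted p. Without NestinCre EAE 4, 5 pairs passed. Of these 4 were lower in EAE, Fgf1 in excitatory and inhibitory neurons, the second Arhgap26 entry in excitatory neurons and Prkg1 in Golgi cells, while Fgf1 in mature oligodendrocytes was higher in EAE (1.36, SE 0.22).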

How the data were processed

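Nuclei of 11 libraries were sorted and sequenced with a droplet 3' kit. The authors counted reads with Cell Ranger on GRCm39, introns included, and deposited raw UMI counts per gene and barcode, which were used unchanged. Per the file headers, run 1 was made with Cell Ranger 7.0.0 and runs 2 and 3 with 6.0.2, so software version and run cannot be told apart.

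Nuclei with at least 200 genes (run 1) or 500 genes (runs 2 and 3) and under 5% mitochondrial UMIs were kept, and scored doublets (0.8% per 1000 barcodes) and clusters with over 40% of them were removed. Nuclei were normalized, integrated by library with Harmony on 40 components, clustered with Leiden (scanpy 1.11.5) and named from marker lists. A cluster was named when at least 3 markers of a class, or more for the longest lists, reached 20 CPM and 25% of the highest cluster. Clusters led by genes of another class were not named, and 1.95% of kept nuclei stayed unnamed. Total UMIs per library were 40761007 to 86063464. Counts were summed per library and class, with CPM as the level. Summed counts were tested with edgeR 4.0.16 (quasi-likelihood, TMM, low counts filtered by filterByExpr, run as covariate, adjusted p below 0.05), and DESeq2 1.42.0 was an alternative. Classes other than the interneurons were tested if every library held 10 nuclei. Scripts were tested on simulated data. The genes, the gene lists and the tests were chosen with earlier results of these data known. The genes named are the 3 members, the 10 genes furthest above and below the other libraries, the 5 most alike and the listed pathway genes. One of these lists and the genomic neighbours of Prkg1 are not reported here.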

Additional observations from a re-analysis of the deposited data

Results flagged for a closer look

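Within the groups of 4 libraries, 6 of 104 combinations of gene, class and group held a library whose distance to the nearest other was large against the range of the group by Dixon's test, and chance flags about 1 in 20. The second Arhgap26 entry was at 109.6 CPM in the interneurons of fl EAE 1, on 261 UMIs, with the other fl EAE libraries at 68.9 to 74.6 CPM. Fgf1 was at 224.3 CPM in the mature oligodendrocytes of fl EAE 4, on 797 UMIs, with the others at 127.6 to 139.1 CPM.

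The remaining 4 rest on few UMIs. In Purkinje cells of NestinCre EAE 2 the second Arhgap26 entry was at 36.3 CPM on 19 UMIs (others 2.63 to 6.71 CPM) and Fgf1 at 13.4 CPM on 7 UMIs (others 2.63 to 4.24 CPM). In NestinCre EAE 1, Fgf1 was at 94.0 CPM in unipolar brush cells on 13 UMIs (others 55.2 to 61.1 CPM) and at 465.5 CPM in vascular leptomeningeal cells or fibroblasts on 17 UMIs (others 41.8 to 97.9 CPM).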

How the results depend on the processing

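The ratio of fl naive 2 to the highest other library in the interneurons kept its side of 1 under the alternatives run for all 4 entries. It ranged over 2.05 to 2.25 (second Arhgap26 entry), 2.19 to 2.23 (Fgf1), 0.785 to 0.803 (first Arhgap26 entry) and 1.72 to 1.81 (Prkg1) when 1 other library was left out. Leaving out other libraries can only keep or raise this ratio, so these values do not test the entries above 1. With nuclei of at most 6000 UMIs the ratio was 2.29 for the second Arhgap26 entry, 2.09 for Fgf1, 1.61 for Prkg1 and 0.717 for the first Arhgap26 entry. Within run 2 alone, an alternative added after seeing the data, the ratios were 4.87 (Fgf1), 3.03 and 0.934 (second and first Arhgap26 entries) and 2.93 (Prkg1). These are bound in the same way.

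The count of 22 genes called between genotypes in the interneurons was 251 with no filter, 70 in run 1 alone and 19 to 74 without 1 library (74 without fl EAE 4 and 73 without NestinCre EAE 4). The counts of 70, 73 and 74 all rest on the run 1 libraries and are not separate alternatives. With no filter the second Arhgap26 entry (0.50) and Prkg1 (-0.52) passed. The count of 0 calls in the other classes was 1 in run 1 alone and 0 to 1 without 1 library. The 3 EAE against naive calls were 5 with no filter, 0 with no run term, 0 without fl naive 2 and with no run term, and 2 to 5 without 1 library (5 without NestinCre EAE 4). The fit with a run term could not be made without fl naive 2. The cause of these changes was not tested.

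With the replicate block, 18 genes were called in the interneurons, the members' log2 fold changes were 0.52, 0.45, 0.44 and -0.51, and 0 pairs were called in the other classes. Deviations of same-numbered libraries correlated at 0.021, 0.063 and 0.035, so the numbers were not taken to pair the libraries, although every library correlated best with its own number. Depth limits Purkinje cells, microglia and fibroblasts, where member counts per library are often under 20 UMIs.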
